A study of Rattus norvegicus with 24 samples.

Results

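This account covers the response of the plantaris, a calf muscle, to 14 days of functional overload in rats of the LRT line. Its members were found by the line and treatment given for each sample: 6 libraries of overloaded LRT muscle and 6 of control LRT muscle, 12 of the 24 libraries in the series. LRT rats were bred for a low gain in running capacity with training, and the other 12 libraries come from the HRT line, bred for a high gain, in the same 2 states. All rats were female, 14 months old and of generation 19 of their line. In the LRT overload group the gastrocnemius and soleus of one leg had been cut away, so that the plantaris beside them carried the load, and the LRT control group is labelled only as control. Whether a control muscle came from another rat or from the unoperated leg of an overloaded one is not stated, and the main model took the groups as unpaired. Sample titles give replicates only by number, so the p-values speak only of the spread among these samples, which may be technical.

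Functional overload is a standard model of rapid muscle growth. A muscle that loses its synergists takes up their work, its fibres thicken, and connective tissue, vessels and resident or incoming non-muscle cells are remodelled along with them. RNA of the whole muscle was sequenced, so a change in one gene can come from fewer or more cells of a type or from less or more RNA per cell, and these cannot be told apart.

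The deposited table gives estimated counts for 31998 Ensembl gene IDs without names, and 0 IDs matched the names at hand. The 33 lists of pathway genes and the 12 lists of cell type markers were therefore not read, and the muscle identity of the libraries was not checked against marker genes. Genes are described below in groups set by their level or by their change, and 2 IDs are printed in each direction. Testing was done on the 16661 IDs that passed a filter on low counts, which together carried 99.96% of all LRT counts. Totals of the 12 libraries ran from 29228900 to 33994732 estimated counts. RNA integrity numbers (RIN) were 8.1 to 8.5 in LRT control and 8.2 to 8.9 in LRT overload (exact permutation p = 0.0216, two-sided), so RIN moved with overload.

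Of the called genes whose groups did not overlap and whose mean log2 CPM was 3 or more, ENSRNOG00000012660 rose most. Levels are given in CPM, counts relative to a library size adjusted by the trimmed mean of M values (TMM). In LRT control muscle this gene was at 21.7, 24.3, 18.3, 45.2, 13.5 and 15.8 CPM in replicates 1 to 6. In LRT overload muscle it was at 1821, 1961, 836, 1153, 201 and 690 CPM. The groups did not overlap, and the lowest overloaded library, replicate 5, still stood above the highest control, replicate 4. Overloaded libraries differed among themselves by 9.74 times between the lowest and the highest. Means were 23.1 ± 11.5 and 1110 ± 680 CPM (SD, n = 6), a log2 fold change of 5.59 ± 0.63 (SE; edgeR quasi-likelihood test, adjusted p = 2.83e-07).

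ENSRNOG00000003897 was already well expressed at rest and also rose. Its control libraries were at 107, 430, 112, 126, 69.3 and 83.5 CPM, with replicate 2 far above the other five. Its overloaded libraries were at 4071, 3774, 2093, 2017, 1293 and 3493 CPM. Each overloaded library lay above each control, and replicate 5 was again the lowest of the overloaded group. The log2 fold change was 4.17 ± 0.53 (SE; edgeR adjusted p = 1.22e-06), and over the leaving out of each LRT library in turn it ran from 4.02 to 4.81.

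By the naming rule, which asks for groups without overlap and a mean log2 CPM of at least 3, the first gene among the falls was ENSRNOG00000019009. It was at 36.1, 41.6, 71.3, 60.3, 46.9 and 68.6 CPM in control replicates 1 to 6. After overload it was at 12.5, 4.64, 20.6, 11.6, 11.1 and 7.88 CPM. All overloaded libraries were below all controls, with replicate 2 the lowest and replicate 3 the highest. The log2 fold change was −2.25 ± 0.26 (SE; edgeR adjusted p = 2.74e-07).

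ENSRNOG00000004821 fell with less spread. Control libraries were at 58.8, 51.4, 52.6, 75.2, 81.2 and 60.2 CPM, and overloaded libraries at 23.8, 13.6, 14.2, 17.2, 16.1 and 13.8 CPM. The groups were well apart, with overload replicate 1 nearest to the controls. The log2 fold change was −1.94 ± 0.16 (SE; edgeR adjusted p = 1.46e-09). All 4 genes kept their call in each of 23 other settings, with the highest adjusted p at 0.000931.

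**Figure D1:**
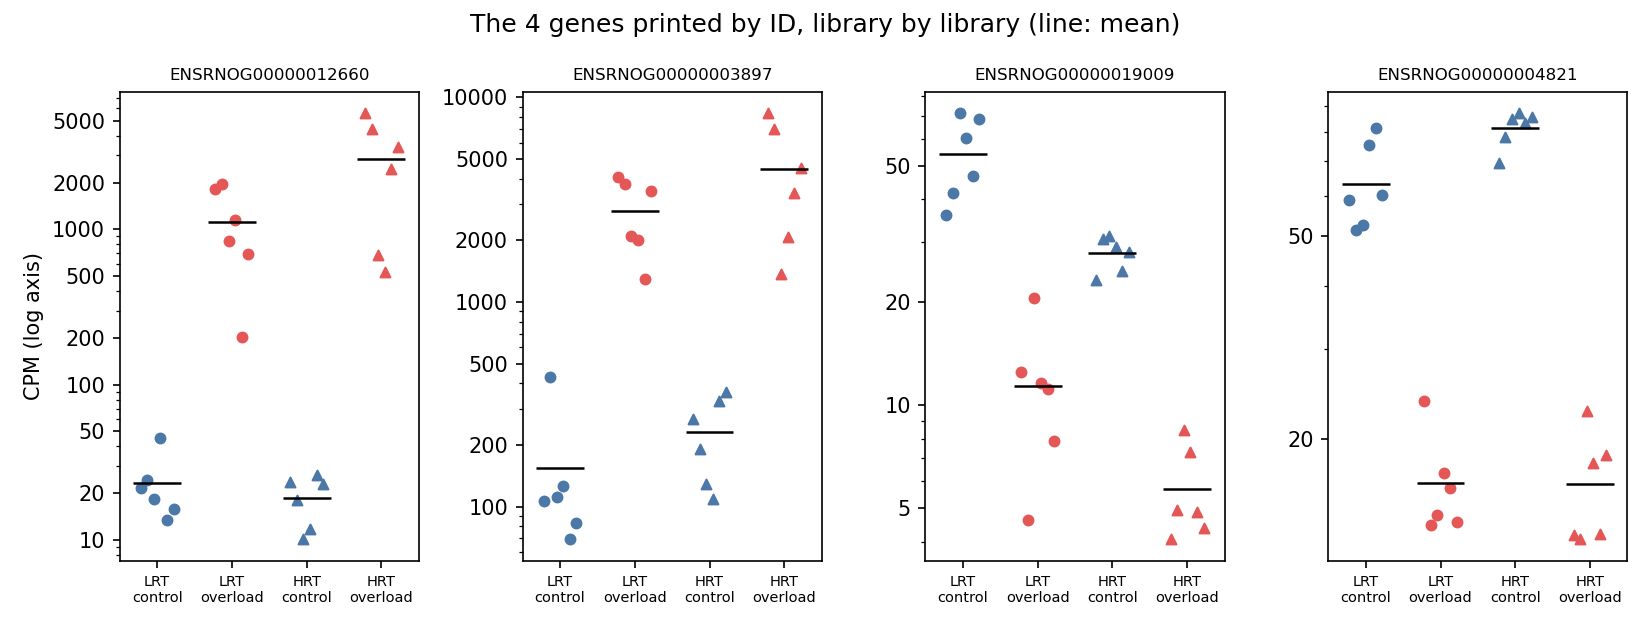
CPM on log axes of the 4 genes printed by ID, 1 point per library, with circles for LRT, triangles for HRT, blue for control, red for overload and a line at each group mean. In the LRT panels each overloaded library lies on one side of all 6 controls, and the 6 overloaded libraries of ENSRNOG00000012660 spread from 201 to 1961 CPM.

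In HRT muscle the same 4 genes moved in the same directions. The log2 fold changes there were 7.24 for ENSRNOG00000012660, 4.26 for ENSRNOG00000003897, −2.29 for ENSRNOG00000019009 and −2.31 for ENSRNOG00000004821 (edgeR adjusted p of 1.22e-08, 5.57e-07, 1.48e-07 and 5.00e-11). The difference between the responses, LRT minus HRT, was −1.66 ± 0.74 (SE) for the first gene, and its edgeR adjusted p was 0.339. For ENSRNOG00000003897, ENSRNOG00000019009 and ENSRNOG00000004821 the differences were −0.09 ± 0.66, 0.04 ± 0.35 and 0.37 ± 0.21 (edgeR adjusted p of 0.968, 0.972 and 0.445). Unadjusted, the edgeR p was 0.036 for ENSRNOG00000012660 and 0.894, 0.903 and 0.0946 for the others in the same order. None of the 4 thus passed the adjusted test of a difference between lines. The standard errors leave room for differences, widest for ENSRNOG00000012660 and ENSRNOG00000003897.

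Across all genes the LRT response was broad. Overload raised 4808 of the 16661 tested genes (28.9%) and lowered 4716 (28.3%), and 7137 were not called, by the edgeR test with a Benjamini-Hochberg adjusted p under 0.05. With RIN, which moved with overload, added to the model, 4607 rose and 4523 fell. With RIN and the replicate number both in the model, 2739 rose and 2444 fell. Rises were larger than falls. The median change was 0.91 on the log2 scale among genes that rose and −0.42 among genes that fell, and −0.02 over all tested genes. Changes under 1.5-fold made up 28.7% of the rises and 75.4% of the falls.

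The imbalance grew with the size of the change. More than 2-fold, 2150 genes rose (12.9% of tested genes) and 193 fell (1.16%). More than 4-fold, 571 rose and 11 fell. More than 8-fold, 161 rose and 3 fell, and more than 16-fold, 45 rose and 1 fell. The 3 genes that fell more than 8-fold averaged at most 2.93 CPM in control muscle. Most of the large rises were of low level too: the median of the mean log2 CPM over the 12 libraries was −0.10 for the 571 genes, −0.57 for the 161 and −0.82 for the 45, each under 1 CPM. Fitted folds of genes at such levels rest on few counts in both directions. Not all large rises were of this kind. ENSRNOG00000012660 and ENSRNOG00000003897 rose more than 16-fold and held at least 6090 counts in each overloaded LRT library. Past 4-fold, the groups did not overlap in 489 of the 571 rises and in 6 of the 11 falls. The falls by over 2-fold also took in abundant genes, one of them at a mean of 10825 CPM in control muscle.

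Complete separation of the 2 groups was common. In 2881 genes (17.3%) every overloaded LRT library was above every control, and in 2576 genes (15.5%) every overloaded library was below. Of the called genes, 59.8% of those that rose and 54.4% of those that fell had groups that did not overlap. By the naming rule (called, no overlap, mean log2 CPM of at least 3), 1126 rising and 2299 falling genes could have been named. The first 10 risers ran from 5.59 down to 3.42 on the log2 scale, and the first 10 fallers from −2.25 to −1.42.

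**Figure D2:**
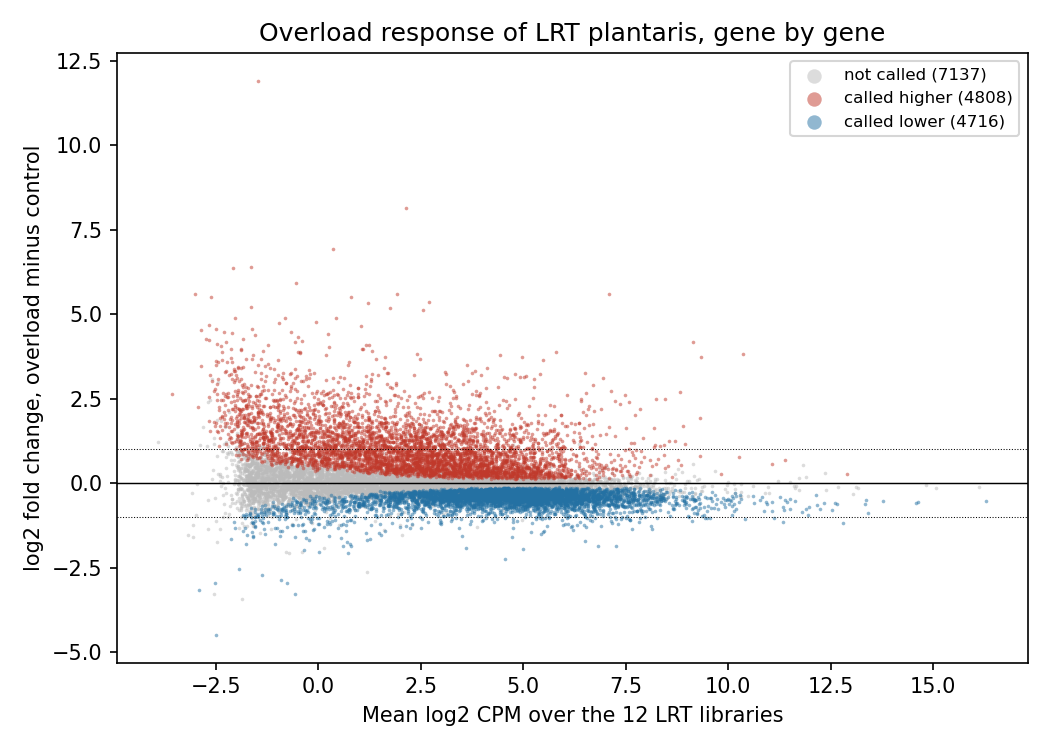
Log2 fold change (overload minus control) of each of 16661 tested genes in LRT muscle against its mean log2 CPM over the 12 LRT libraries, with dotted lines at 2-fold. Points called higher (4808) reach far above the upper line at low and middle levels, while most of the points called lower (4716) lie above the lower line.

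How a gene moved depended on how abundant it was. Tested genes were parted by their mean log2 CPM over the 12 LRT libraries, a measure that takes both groups alike. Of 2949 genes under 1 CPM, 33.1% rose and 6.24% fell, and of 3236 genes at 1 to 4 CPM, 38.7% rose and 11.1% fell. At 4 to 16 CPM (4566 genes) 33.1% rose and 25.8% fell. The order then turned. At 16 to 64 CPM (4095 genes) 21.1% rose and 45.9% fell, at 64 to 256 CPM (1446 genes) 11.8% rose and 61.7% fell, and of the 369 genes over 256 CPM 8.94% rose and 60.7% fell. The median change went from 0.32 on the log2 scale in the lowest of these classes to −0.39 in the highest.

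These directions rest in part on the scaling. TMM factors were 0.844 to 0.930 in LRT control libraries and 0.977 to 1.18 in LRT overload libraries, so the scaling itself parted the groups. With libraries scaled by their totals alone, the median over all tested genes was 0.22 in place of −0.02, and 6765 genes rose and 1893 fell. Rises were then 78.1% of the calls, against 50.5% with TMM. The genes at 16 to 64 CPM changed sides, with 35.4% higher and 18.9% lower. This scaling moves all genes upward, so more rises than falls below 16 CPM carry no further information. Above 64 CPM falls still outnumbered rises, at 16.3% higher and 39.3% lower over 256 CPM.

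**Figure D3:**
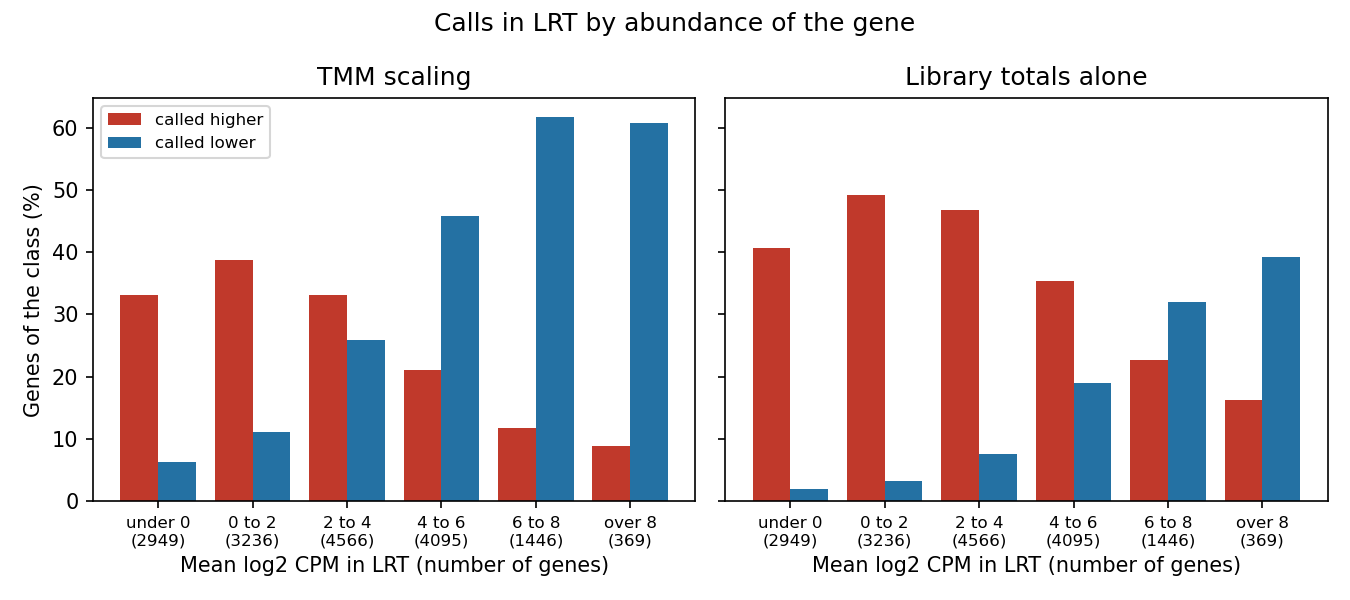
Percentage of the genes of each abundance class called higher (red) or lower (blue) in overloaded LRT muscle, with TMM scaling on the left and library totals alone on the right. Rises lead in the 3 lowest classes and falls in the 2 highest under both scalings, while the class at log2 CPM 4 to 6 turns from 45.9% lower and 21.1% higher to 18.9% lower and 35.4% higher.

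Counts were spread over more genes after overload. Skeletal muscle RNA is dominated by a small set of very abundant transcripts, and their share of the counts was read in each library. Within each library the top 100 genes took up 54.5% to 57.7% of the counts in LRT control and 49.1% to 53.9% after overload (two-sided exact permutation p = 0.00216, the lowest value possible with 6 against 6 libraries, and 0.00289 when adjusted over 4 measures). The 2 groups did not overlap. The smallest set of genes that held 50% of a library numbered 44 to 63 in control and 66 to 112 in overload, again without overlap and with the same exact permutation p. For the 10 most abundant genes alone, the shares of 29.9% to 33.5% and 26.9% to 30.3% overlapped (exact permutation p = 0.00649).

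By abundance class, the highest class held a smaller share after overload. The 369 genes over 256 CPM took 67.2% ± 0.614 of all counts in control libraries and 63.3% ± 2.06 in overloaded ones (SD, n = 6). Genes at 16 to 64 CPM went from 12.2% ± 0.253 to 13.9% ± 0.926, and genes at 4 to 16 CPM from 3.52% ± 0.112 to 4.64% ± 0.450. Mean shares went from 0.119% to 0.196% under 1 CPM and from 0.581% to 0.902% at 1 to 4 CPM. In all 5 of these classes the ranges did not overlap between groups. At 64 to 256 CPM the shares of 16.1% to 16.7% in control and 16.6% to 18.1% in overload did overlap. The shares are of library totals, and TMM entered only in assigning genes to classes.

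**Figure D4:**
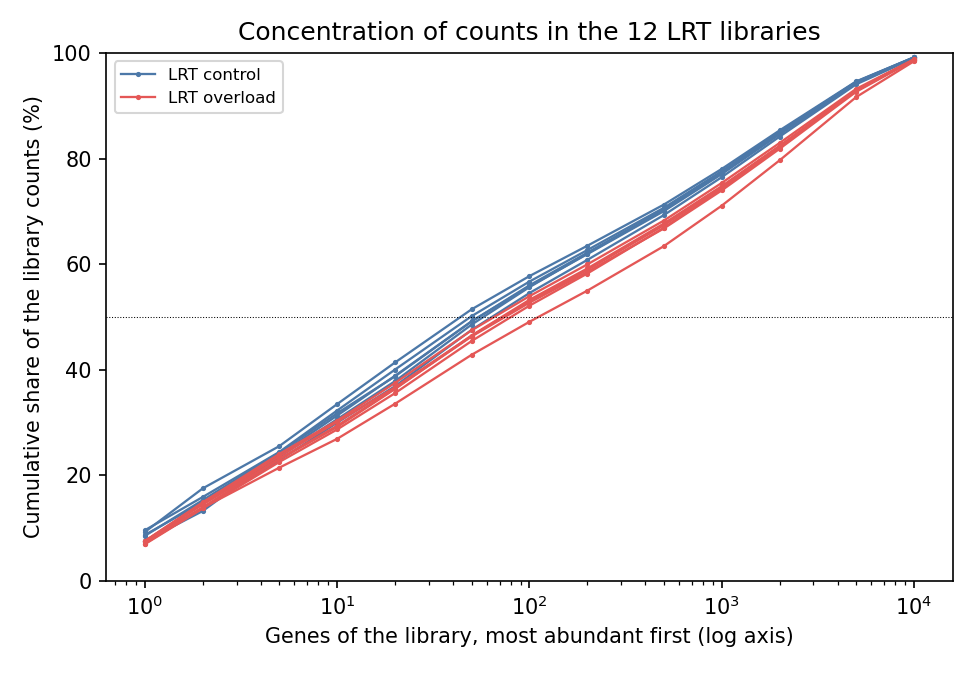
Cumulative share of a library's counts held by its most abundant genes, counted from the top on a log axis, for the 6 control (blue) and 6 overload (red) LRT libraries. The red lines lie lower at 100 genes, at 49.1% to 53.9% against 54.5% to 57.7%, and the lowest line is overload replicate 2.

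More genes also reached a measurable level. At least 1 CPM was reached by 13235 to 13439 genes in LRT control libraries and by 13822 to 14085 in LRT overload libraries (exact permutation p = 0.00216, two-sided; adjusted over 4 measures, 0.00289). Every overloaded library exceeded every control in this count. Over the whole table, 170 genes were at 1 CPM or more in all 6 overloaded libraries and in none of the controls, and 3 genes showed the reverse. With library totals as the scale these numbers were 236 and 0. A further 12351 genes were at 1 CPM or more in all 12 libraries, and 14988 were in at least 1 LRT library. Genes that crossed this level in all libraries of a group were thus a small part of those expressed. Others crossed it in only some libraries.

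A small group was almost silent at rest. In 65 tested genes no LRT control library held more than 3 counts, and in 3 of them all 6 controls were at 0. Of the 65, 40 had more than 3 counts in each overloaded LRT library, and 62 were called higher. Such genes could pass the count filter only through other groups, so this share is a description. Their mean level after overload had a median of 0.393 CPM and reached 15.4 CPM at most. On the other side, 2 tested genes had at most 3 counts in each overloaded LRT library.

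Whether LRT muscle changed the genes that HRT muscle changed was read from genes picked by their change in HRT alone. The count filter before the picking had used all 24 libraries. A fit to the HRT libraries alone called 2601 genes that rose past 2-fold and 484 that fell past it. In a fit to the LRT libraries alone, 94.0% of the 2601 rose, where 30.0% of all tested genes did, and 65.5% of the 484 fell, where 23.7% of all tested genes did. Called in the opposite direction were 0 of the first and 1 of the second. Past 2-fold in LRT as well were 1998 of the 2601 risers and 117 of the 484 fallers. Of all 16661 tested genes, 2273 rose and 156 fell past 2-fold in that LRT fit.

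The size of the LRT change depends on which line picked the genes. For genes picked in HRT the median log2 change was 1.64 in HRT and 1.42 in LRT among the risers, and −1.22 in HRT and −0.77 in LRT among the fallers. Picking by size in one line enlarges that line's own median. Genes picked in the same way in LRT alone were 2273 risers and 156 fallers. Their medians were 1.53 in LRT and 1.70 in HRT, and −1.20 in LRT and −1.33 in HRT. The LRT medians were thus smaller in size under both ways of picking, including the one that favours LRT. The 2 picks share 1998 risers and 117 fallers and rest on the same libraries, so the second is not a separate check. No test was made of these medians.

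The 6 overloaded LRT libraries differed in how far they lay from the controls. Over the 2601 genes that rose in HRT, the median log2 difference from the LRT control mean was 1.37, 1.64, 1.18, 1.31, 0.97 and 1.30 in overload replicates 1 to 6, and the 6 controls lay between −0.09 and 0.11. Over the 484 genes that fell in HRT it was −0.82, −1.21, −0.60, −0.82, −0.53 and −0.84, with the controls between −0.05 and 0.05. Replicate 2 was furthest from control and replicate 5 nearest, in both sets. Replicate 2 was the highest of the 6 in 58.7% of the rising genes and the lowest in 55.4% of the falling genes. Replicate 5 was the nearest to control in 51.1% and 41.5% of them. These shares count genes of the same libraries and are no test.

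Other properties of these libraries stood beside this order. Replicate 2 had the highest TMM factor of the 12 LRT libraries (1.18), the most genes at 1 CPM (14085) and the lowest share in its 100 most abundant genes (49.1%). Its RIN was 8.6 and that of replicate 5 was 8.7, both within the range of the group, and their totals were 29444027 and 29228900 counts. The part of scaling or RNA quality in the order of the libraries was not tested. Without replicate 2 the medians of the group were 1.23 and −0.73, and without replicate 5 they were 1.36 and −0.86, against 1.29 and −0.81 with all 6.

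**Figure D5:**
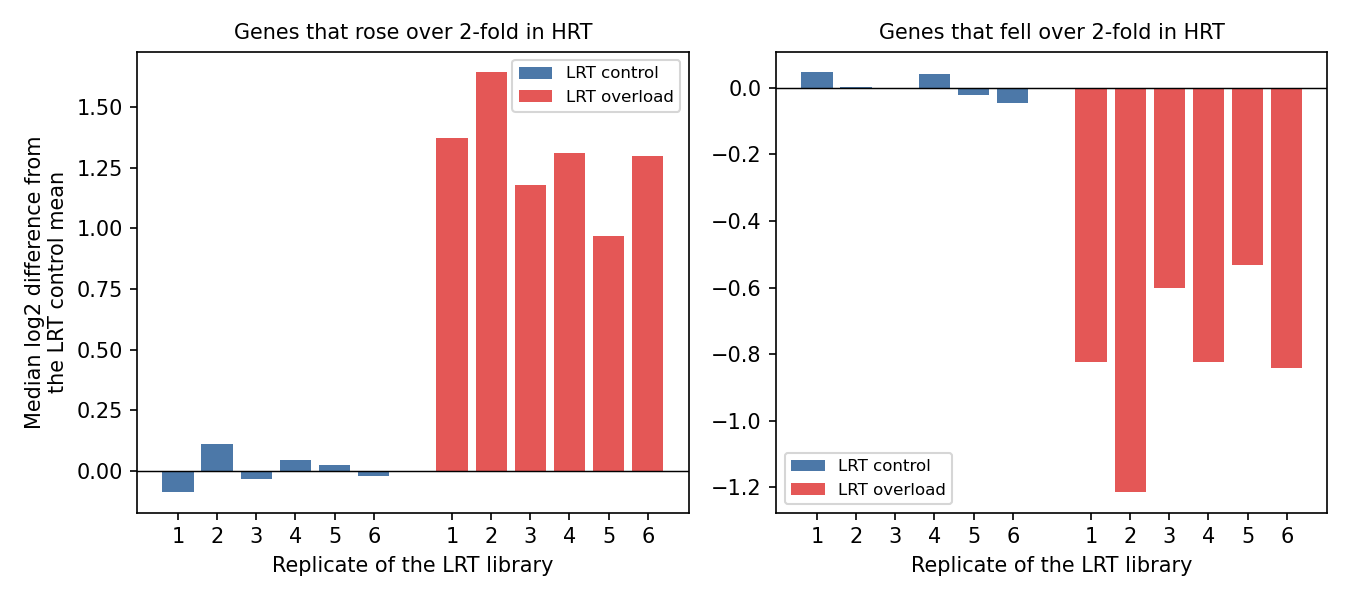
Median log2 difference from the LRT control mean, library by library in LRT, over 2601 genes that rose (left) and 484 that fell (right) by more than 2-fold in HRT libraries alone. The 6 control bars stay between −0.09 and 0.11, and among overloaded libraries replicate 2 reaches 1.64 and −1.21 while replicate 5 reaches 0.97 and −0.53.

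The spread between overloaded LRT muscles was close to that between controls, and the size of its small excess depended on single libraries of both groups. Over 13712 genes with a mean of at least 1 CPM, the median SD of log2 CPM was 0.168 in LRT control and 0.186 in LRT overload, and 54.2% of genes spread more after overload. Without overload replicate 2 the median SD after overload was 0.163, below that of the controls, and without replicate 5 it was 0.175, with 49.3% of genes wider. Without LRT control replicate 3 the median SD in control was 0.151, with 61.6% of genes wider after overload. In HRT the same medians were 0.142 and 0.219, with 70.5% of genes wider after overload, and the contrast between lines was not tested. Genes that rose more than 2-fold in LRT had median SDs of 0.272 in control and 0.352 in overload, and the latter was 0.316 without overload replicate 2 and 0.292 without replicate 5. Genes that fell had 0.135 and 0.152, and the latter was 0.125, below control, without replicate 2 and 0.145 without replicate 5. By comparison, genes not called had 0.182 and 0.185. The latter was 0.170 without overload replicate 2 and 0.177 without replicate 5, each below control. A call itself depends on the spread within groups, so no conclusion is drawn from called against uncalled genes.

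The test of the difference between the LRT and HRT responses, gene by gene, called 8 of 16661 genes (0.0480%), 4 in each direction (edgeR adjusted p under 0.05). An unadjusted edgeR p under 0.05 was found for 2265 genes, a larger share than 0.05 of those tested. It was found for 2316 with RIN in the model, 2074 with the replicate number and 912 with both. Genes of a library can move together, so this share alone cannot show a difference between lines. In all 8 the LRT change was smaller in size than the HRT change, at no more than 0.52 on the log2 scale. All 8 were called in HRT, and 2 were also called in LRT, where 57.2% of all tested genes were. In 0 of the 8 were the LRT groups free of overlap, against 17.3% (higher) and 15.5% (lower) of tested genes. The 8 were picked by the difference itself, so these counts only describe them. The count ran from 1 to 25 as single libraries of either line were left out, with the values for each library in the closing section.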

How the data were processed

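RNA-seq libraries of whole plantaris were grouped by line and treatment. The deposited values are estimated counts per Ensembl gene ID, 1 column per sample and not normalized. Salmon 0.9.1 and 2 build names, Rnor_6.0 and rn6, appear per the submitters' processing notes. For annotation and settings, nothing was given in the sources used here, and counts of near-identical or overlapping genes are uncertain. Counts were rounded. All 24 libraries were fitted together with edgeR 4.0.16 (R 4.3.3), using TMM, robust quasi-likelihood dispersions and 1 term for each group. The fit took 16661 of 31998 IDs, those passing filterByExpr at a minimum count of 10 and a minimum total of 15 (4208 IDs had no counts). Adjusted p-values are Benjamini-Hochberg over all tested genes, threshold 0.05. Each standard error was taken as |log2 fold change| divided by √F. Log2 CPM used a prior count of 2.

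The model was tested on simulated data. No library repeated another: over 30 pairs within LRT groups chi-square divided by its degrees of freedom was at least 22.4. Exact permutation tests used all 924 divisions into 6 and 6. The reference table of names (47357 genes of the assembly GRCr8) matched 0 IDs, so the gene lists were not tested, and the naming rule gave 2 IDs in each direction: called, groups apart, mean log2 CPM of at least 3, largest change. Members, lists and tests were chosen with earlier results of these data known. Abundance classes, genes picked in HRT, spread and 3 of the 4 library measures were added after the counts had been seen. Alternatives were DESeq2 1.42.0, limma-voom (limma 3.58.1), other scalings and filters, RIN, blocks, LRT alone and each library left out. Plots used matplotlib 3.10.9.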

Additional observations from a re-analysis of the deposited data

Results flagged for a closer look

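Six-library groups were looked at for a library far from the other five in 22 sets of values, and 6 stood out, where chance alone gives about 1 in 20. In LRT control, replicate 4 was at 45.2 CPM for ENSRNOG00000012660, with the next at 24.3, and replicate 2 was at 430 CPM for ENSRNOG00000003897, with the next at 126. In LRT overload, replicate 1 was at 23.8 CPM for ENSRNOG00000004821, with the next at 17.2. The other 3 values belong to LRT overload replicate 2: 49.1% of counts in its 100 most abundant genes (next 52.1%), 112 genes for 50% of its counts (next 80), and a TMM factor of 1.18 (next 1.05). These last 3 measures follow from the same distribution of counts and are not independent.

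The responses of the lines differed by a test of the difference itself in 8 genes, a count that did not hold across settings: it was 1 when any 1 of 15 libraries was left out, 0 with the replicate block and RIN together (edgeR; 912 at an unadjusted p under 0.05) and 140 with DESeq2.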

How the results depend on the processing

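All 4 genes printed by ID kept their direction and their call in 23 other settings each, and the lower share of the 10 most abundant genes kept its exact permutation p under 0.05 in 13 (−7.84 to −2.03 percentage points; −2.79 to −2.03 with single libraries left out). The count of 9524 genes changed in LRT stayed between 7913 and 9579 in 22 settings (8816 to 9579 with single libraries left out; rises 4519 to 4798, falls 4297 to 4781). It dropped to 5183 (2739 higher, 2444 lower) with the replicate block and RIN together, and falls numbered 1893 with library totals alone. The replicate block without RIN gave 9109, and RIN without the block gave 9130. Same-numbered LRT libraries are known only to share a number (correlations of −0.13 to 0.15, best with their own number in 2 of 6). Such correlations cannot tell whether same-numbered libraries came from one rat. The 8 genes called for the difference between responses became 140 with DESeq2, 1 with its size factors in edgeR, 2 with limma-voom, 5 without a filter, 5 without robust dispersion, 2 with RIN, 1 with the replicate block and 0 with block and RIN (edgeR; 912 at an unadjusted p under 0.05). It ranged from 1 to 25 over the omission of each library, and 22 of 24 libraries moved it over 1.5 times. It was 25 and 16 without HRT overload replicates 4 and 3, 19 without LRT overload replicate 2, 17 without LRT control replicate 2, and 5 without HRT control replicate 6. It was 2 without HRT control replicate 2 or LRT overload replicate 1, 8 and 6 without LRT control replicates 3 and 5, and 1 without any of the other 15. The excess of median SD after overload, 0.0183, turned to −0.00454 without LRT overload replicate 2, dropped to 0.00683 without replicate 5, and reached 0.0348 without LRT control replicate 3. The causes were not tested. Alternatives for gene lists and for myosin and mitochondrial shares were not run, since 0 IDs had names.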
